A study of Mus musculus with 29 samples.

Results

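Ddit4, Fkbp5, Tsc22d3, Per1, Sgk1 and Zbtb16 are 6 genes whose transcription rises when a glucocorticoid hormone is given to many cell types. They were taken by name from every deposited table, which together list 27827 genes, and all 6 were listed in every table. The data are Drop-seq single-cell RNA profiles of immune and endothelial cells from the brain and blood of C57BL/6J mice after experimental stroke, made by blocking a middle cerebral artery for a limited time, or after sham surgery. Values for each gene were summed over the cells of each library and deposited cell type, and are given as CPM, the gene's count divided by the total count of that sum on the usual scale.

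The young brain groups held male mice aged 8 to 10 weeks, with 4 libraries 2 days after sham surgery, 4 libraries 2 days after stroke and 4 libraries 14 days after stroke. The aged brain groups held mice aged 17 to 20 months, with 2 sham libraries (1 male, 1 female) and 3 stroke libraries (1 male, 2 female) at day 2, and 1 female stroke library at day 14. The blood groups held young males, with 4 sham and 4 stroke libraries at day 2 and 3 stroke libraries at day 14. No sham group was taken at day 14, so day 14 was set against the day 2 shams. Each brain library pooled 4 to 5 hemispheres, which in all groups were digested with papain in the presence of actinomycin D, an inhibitor of transcription, and sorted for CD45 high leukocytes, CD45 intermediate microglia and Ly6c high endothelial cells. Each blood library pooled 0.5 ml from each of 2 mice, with actinomycin D added and erythrocytes lysed. Tissue and preparation can therefore not be told apart, and p-values measure the spread between libraries, because nothing says which libraries share animals. Hormone levels were not among the values analysed here.

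The glucocorticoid receptor is a transcription factor that waits in the cytoplasm with heat shock proteins, moves to the nucleus when it binds corticosterone in the mouse, and binds palindromic DNA elements near its target genes. Stroke and surgery both raise circulating corticosterone, which also follows a daily rhythm. Each of the 6 genes has a different job. Fkbp5 is a cochaperone that lowers the receptor's affinity for its hormone, and Tsc22d3, also called GILZ, is an anti-inflammatory leucine zipper protein. Ddit4, also called REDD1, inhibits the growth kinase complex mTORC1 and also rises with hypoxia and other stresses. Sgk1 is a kinase that controls ion channels and transporters, Per1 is a repressor of the circadian clock, and Zbtb16, also called PLZF, is a transcription factor of innate-like lymphocytes. None is a reporter of glucocorticoids alone.

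On the mouse build GRCm38, Sgk1 lies at chr10:21882184-21999903 and Ddit4 at chr10:59949669-59951834. Per1 lies at chr11:69095217-69109960, Fkbp5 at chr17:28399094-28517527, Zbtb16 at chr9:48654297-48836222 and Tsc22d3 at chrX:140539528-140600659. Windows of 300 bases, 250 before to 50 after an annotated start, were held in the RefSeq table of GRCm38.p6 for 5 of the 6 genes, 13 windows in all. They were searched on both strands for the receptor's palindrome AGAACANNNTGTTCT, for its hexamer TGTTCT or AGAACA, which the palindrome also contains, and for CACGTG, the E-box that clock factors can bind. The palindrome was found in 3 of 32851 windows of all genes (0.00913%), and 1 of those 3 belonged to Sgk1. The hexamer was found in 19% and the E-box in 7.15% of all windows, so a single match of either is common. The stretches below are shown because they are places where promoter windows of these genes carried a motif. They run 5′ to 3′ on the gene's strand with the motifs in capitals, and none overlapped an annotated exon.
Sgk1 (chr10:21993640-21993755, plus strand, E-box joined to a hexamer, then the palindrome): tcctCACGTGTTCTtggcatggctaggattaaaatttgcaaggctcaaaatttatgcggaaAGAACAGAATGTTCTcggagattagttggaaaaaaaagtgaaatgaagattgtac
Per1 (chr11:69098743-69098828, plus strand, E-box): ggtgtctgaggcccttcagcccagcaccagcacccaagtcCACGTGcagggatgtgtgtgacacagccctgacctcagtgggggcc
Fkbp5 (chr17:28486273-28486358, minus strand, E-box): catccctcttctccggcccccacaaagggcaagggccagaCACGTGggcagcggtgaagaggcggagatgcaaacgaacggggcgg
Tsc22d3 (chrX:140600662-140600747, minus strand, hexamer): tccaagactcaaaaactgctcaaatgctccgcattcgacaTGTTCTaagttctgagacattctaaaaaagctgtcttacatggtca
Sgk1 had 2 further windows with the hexamer, not shown here, and the 1 window of Ddit4 held none of these 3 motifs.

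The libraries held 106977 cells, 1143 to 5121 per brain library and 2360 to 6328 per blood library. Total counts ran from 819438 to 5855047 in the brain and from 966914 to 5232662 in the blood, and the median cell held 321 to 1363 counts in the brain and 341 to 694.5 in the blood. No pair of libraries shared more than 7 cell barcodes. The markers of the deposited type were the highest of 16 marker lists in each type that the results use, except that dendritic cells in both tissues and border macrophages in the brain scored highest for monocytes and macrophages. One library stood apart: library 3 of the young brain stroke group at day 2 held only 58 microglia with 26321 counts, and in those cells the microglia markers summed to 816 CPM against 17380 to 25022 CPM in the shams. Changes of the 6 genes and of the gene lists in microglia at day 2 are therefore given with and without it. Differences between microglia and other types are given only with it. The lists and the blood against brain comparison without single libraries were added after the data had been seen.

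Microglia, the resident macrophages of the brain, had less Ddit4, Tsc22d3 and Per1 RNA 2 days after stroke than after sham surgery in young mice. At day 14, Ddit4 and Fkbp5 were lower than in the shams. Sgk1 was not called at either time. Of the 5 genes with enough counts to test, 3 were lower and none higher at day 2, and 2 were lower and none higher at day 14, at an adjusted p under 0.05 by edgeR's quasi-likelihood test with Benjamini-Hochberg adjustment over all genes. Among all 10145 genes tested in microglia, 31.4% were called at day 2 (15.7% lower, 15.7% higher) and 15.2% at day 14 (4.68% lower, 10.6% higher). Without library 3 of day 2, 2 of the 5 genes, Ddit4 and Tsc22d3, were lower at day 2, where 27.5% of all genes were called.

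Ddit4 had the largest fitted change of the 5 genes tested in microglia, at both times. In sham libraries 1 to 4 its level was 222, 259, 83.6 and 153 CPM, at day 2 after stroke it was 29.7, 47.4, 28.9 and 37.8 CPM, and at day 14 it was 6.96, 18.1, 11.5 and 13.3 CPM. The 3 groups did not overlap, and every library of day 14 lay below every library of day 2. The 28.9 CPM of day 2 library 3 rests on 0.761 counts. The group means were 179 CPM in the shams, 36.0 CPM at day 2 and 12.5 CPM at day 14. The fitted log2 fold change was -2.05 ± 0.38 (SE) at day 2 (adjusted p = 0.00175), a fitted ratio of 0.241 to the shams after TMM scaling, and -3.42 ± 0.38 at day 14 (adjusted p = 5.15e-05), a fitted ratio of 0.0934. The further step from day 2 to day 14 was -1.37 ± 0.40 (adjusted p = 0.0537, with 6.92% of all genes called), which did not pass the test. That step was called with DESeq2 (-1.28, adjusted p = 0.049), without TMM (0.0158), without cells of very high counts (0.0223), with only the compared groups (0.0467) and on leaving out sham library 3 (0.027) or day 14 library 2 (0.0393). Without library 3 of day 2 the day 2 change was -2.05 (adjusted p = 0.00421).

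Tsc22d3 was at 336, 254, 245 and 73.1 CPM in the shams and at 30.1, 52.4, 22.2 and 79.1 CPM at day 2. Sham library 4 lay below stroke library 4, so the groups overlapped at that point, while the other 3 shams were far above all stroke libraries. The change was -1.86 ± 0.48 (adjusted p = 0.0104), -1.83 (adjusted p = 0.0226) without library 3 of day 2, and -1.48 (adjusted p = 0.0567) without library 1 of day 2. At day 14 Tsc22d3 was at 124, 56.4, 50.5 and 87.9 CPM, between the other 2 groups and overlapping both, with a change from sham of -1.04 ± 0.43 (adjusted p = 0.11), called without TMM (-1.50, adjusted p = 0.0198) and without sham library 4 (-1.32, adjusted p = 0.0469).

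Fkbp5 was at 114, 219, 133 and 162 CPM in the shams, at 50.1, 121, 5.05 and 50.2 CPM at day 2 and at 36.9, 35.5, 25.4 and 54.2 CPM at day 14. Stroke library 2 of day 2 fell inside the sham range, and no library of day 14 did. The change was -1.07 ± 0.40 at day 2 (adjusted p = 0.0566), -0.97 (adjusted p = 0.0676) without library 3, and -1.61 ± 0.39 at day 14 (adjusted p = 0.0143). The day 2 change was called with DESeq2 (-1.27, adjusted p = 0.0132), with the replicate number as a block (0.0211), with counts rounded up (0.0274), without TMM (0.0288), with only the compared groups (0.0496), and without sham library 1 (0.0419) or day 2 library 2 (0.0114). The day 14 call was lost without sham library 2 (-1.37, adjusted p = 0.0604).

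Per1 was at 56.7, 58.7, 61.4 and 20.1 CPM in the shams and at 11.8, 12.8, 18.3 and 12.2 CPM at day 2. The groups did not overlap, although sham library 4 was close to the stroke libraries. The change of -1.84 ± 0.62 (adjusted p = 0.0372) was not called without library 3 of day 2 (-1.81, adjusted p = 0.0566), nor without any other single library of day 2 or any of sham libraries 1 to 3. At day 14 library 1 had 72.9 CPM and the other 3 libraries 11.4 to 16.2 CPM, so no common direction from sham was seen (-0.28 ± 0.52, adjusted p = 0.75).

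Sgk1 was at 396, 354, 632 and 275 CPM in the shams, at 271, 312, 311 and 466 CPM at day 2 and at 745, 256, 534 and 470 CPM at day 14. The groups overlapped throughout. The change was -0.11 ± 0.36 at day 2 (adjusted p = 0.839), -0.03 (adjusted p = 0.956) without library 3, and 0.74 ± 0.35 at day 14 (adjusted p = 0.163). Zbtb16 was close to 0 in microglia, 6.44 ± 8.29 CPM (SD, n = 4) in the shams, and was not tested.

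**Figure D1:**
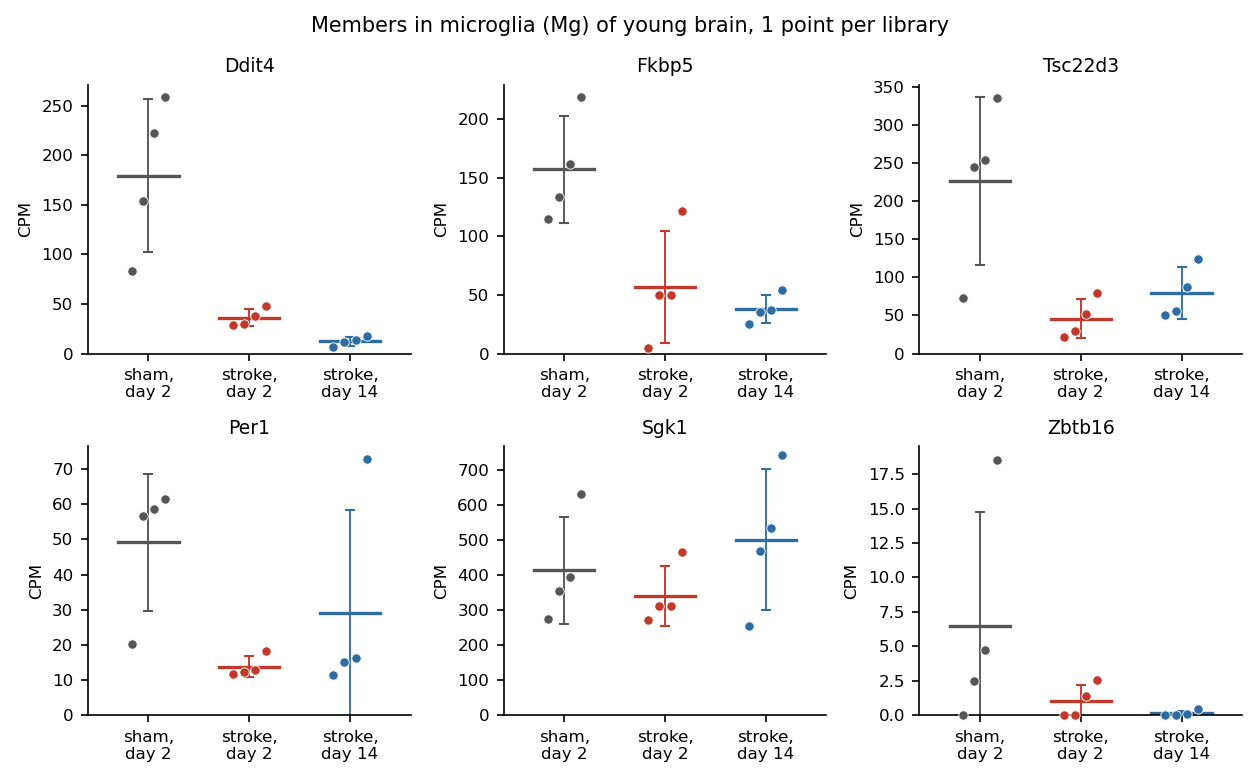
Levels of the 6 genes in young brain microglia, in CPM on a linear axis from 0, in sham, day 2 stroke and day 14 stroke libraries; each point is a library, the line is the mean and the bar the SD over 4 libraries. Ddit4 falls from 83.6 to 259 CPM in the shams to 6.96 to 18.1 CPM at day 14, while the Sgk1 groups overlap.

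The sham microglia came mostly from the deposited subtypes Mg1 and Mg2 (5826 and 4043 cells), those of day 2 from Mg4 and Mg5 (1034 and 910 cells) and those of day 14 from Mg3 (3415 cells). Subtypes were defined on expression, so values within them are a description. In Mg1, Ddit4 averaged 159 ± 57.6 CPM in the shams (n = 4), 89 ± 42.8 at day 2 (n = 3) and 23.2 ± 31.2 at day 14 (n = 3). In Mg4, the day 2 subtype, it averaged 204 ± 36.9 CPM in the 124 sham cells (n = 3) and 32.4 ± 6.03 at day 2 (n = 4). Ddit4 means were lower after stroke in both subtypes, and in Mg1 the spreads of sham and day 2 overlapped. The part of subtype composition in the Ddit4 change was not tested. Per1 and Sgk1 also differed between subtypes of the shams themselves: Per1 averaged 25.9 ± 10.9 CPM in Mg1 and 75.6 ± 23 in Mg2, and Sgk1 averaged 261 ± 88.8 and 596 ± 153 (n = 4 each).

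Markers of other cells moved with these groups. The 8 monocyte and macrophage markers summed to 233 to 399 CPM in sham microglia, 546 to 4360 CPM at day 2 and 2184 to 3206 CPM at day 14, with all 8 higher at day 2 and 7 of 8 at day 14, and Fn1 at 0 in the shams. The 7 border macrophage markers summed to 30.6 to 39.7 CPM in the shams and 14.1 to 225 CPM at day 2, with 6 of 7 higher, and the astrocyte markers summed to 196 to 210 CPM in the shams and 24.8 to 72.1 CPM at day 2. The 9 dendritic markers summed to 2868 to 3534 CPM in the shams, 1242 to 1705 CPM at day 2 and 1534 to 1941 CPM at day 14, and the 9 neutrophil markers to 176 to 602 CPM in the shams and 14.7 to 156 CPM at day 2. The 8 microglia markers summed to 12517 to 17312 CPM at day 14. The part of these cells in the changes of the 6 genes was not tested.

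The genes around the receptor were read in the same microglia from 8 lists. In the list of the receptor and its partners, 1 gene rose and 6 fell of 13 tested of 16 at day 2, with a median log2 change of -0.71 against -0.05 over all genes. Nr3c1, the receptor itself, fell from 407 ± 164 CPM in the shams to 81.4 ± 34.2 CPM at day 2 (n = 4 each), a change of -1.95 ± 0.43 (adjusted p = 0.0051), or -1.88 (adjusted p = 0.0116) without library 3, and was at 171 ± 107 CPM at day 14. Nrip1, a corepressor, fell by 2.47, and Ptges3, the p23 cochaperone of the receptor complex, rose by 1.03. Among 28 other genes that glucocorticoids raise, 16 were tested, of which 3 rose and 7 fell, with a median of -1.10. The metallothioneins Mt2 (2.77) and Mt1 (1.09) and the interleukin 4 receptor Il4ra (0.63) rose. Cdkn1c, a cell cycle inhibitor, fell by 2.92 and Errfi1, an inhibitor of epidermal growth factor signalling, fell by 2.40. A list named for glucocorticoid induction therefore held called genes in both directions. Without library 3 the counts were 1 higher and 6 lower of 13 in the receptor list and 3 higher and 7 lower of 17 in the other, with 27.5% of all genes called.

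The counts of the other lists in microglia at day 2 stand against the 31.4% called over all genes (15.7% in each direction). The called shares of the inflammatory, clock and early response lists were near or below the 31.4%, and that of the hypoxia list was below it. The calls of each of these lists went in 1 direction. Against the 15.7% of that direction alone, only the hypoxia share was lower and the others were higher. Of 12 inflammatory genes that glucocorticoids lower, 3 rose and none fell (median 1.19), among them the chemokines Ccl5 (5.37), Cxcl10 (3.81) and Ccl2 (2.54). Of 10 clock genes 3 fell and none rose (median -0.95), led by Hlf (-3.53). Of 10 early response genes, which also respond to tissue handling, 3 fell and none rose (median -1.25), led by Fosb (-2.81). Of 9 FoxO and growth factor signalling genes 4 fell and none rose (median -0.94), led by Pik3ip1 (-2.78). Of 8 hypoxia genes tested, a group that shares stimuli with Ddit4, only Hilpda was called (1.59, median of the list -0.10), and of 5 integrated stress response genes Ddit3 (-1.83) and Atf4 (-0.96) fell. Without library 3, 1 of the 10 early response genes fell in place of 3, Fosb being at -2.80 (adjusted p = 0.0513). Likewise 2 of 11 clock genes and 3 of 10 FoxO genes fell, 3 of 12 inflammatory genes and 1 of 8 hypoxia genes rose, and 1 of 6 integrated stress response genes rose and 2 fell.

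At day 14, 15.2% of all genes were called in microglia (4.68% lower, 10.6% higher). The receptor list had 2 lower and no higher of 13, near the share called in either direction and above the share called lower. The list of other genes that glucocorticoids raise had 1 higher and 4 lower of 16. The inflammatory list had 6 higher of 12, with Ccl5 at 7.83. The clock list had 2 higher, Bhlhe40 (5.92) and Nfil3 (2.16), and 1 lower, Hlf (-2.11). No early response gene of 10 was called.

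Ddit4 was not called lower at day 2 in endothelial, dendritic or monocyte-derived cells, the other 3 types tested in the young brain. Endothelial cells had the highest sham level of the 8 types with at least 3 sham libraries, 308, 323, 232 and 246 CPM, and were at 247, 329, 307 and 253 CPM at day 2 and 180, 285, 167 and 257 CPM at day 14. These groups overlapped at both times (0.11 ± 0.23 at day 2, adjusted p = 0.786). In dendritic cells Ddit4 was at 382, 102, 217 and 174 CPM in the shams, 351, 527, 421 and 704 CPM at day 2 and 164, 105, 75 and 108 CPM at day 14. Day 14 lay below day 2 in every library (-2.14 ± 0.37, adjusted p = 0.0198, where 0.893% of all genes were called), while day 2 against sham did not pass the test (1.35 ± 0.40, adjusted p = 0.107, with 1.17% of all genes called).

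The dendritic cell call was lost without library 1 (adjusted p = 0.0701) or 4 (0.0975) of day 2, and without library 3 (0.0617) or 4 (0.0695) of day 14. The monocyte markers were higher than the dendritic markers in these cells in all groups. From day 2 to day 14 the 9 dendritic markers went from a median of 1590 to 2403 CPM, the 8 T cell markers from 3.70 to 9.15 CPM to 15.8 to 50.3 CPM, and the 5 epithelial or ependymal markers, with Folr1, Kl and Krt18 at 0, from 0 to 6.79 CPM to 28.8 to 53.9 CPM. The part of these in the Ddit4 change was not tested. Each deposited dendritic subtype with values at both times had a lower mean at day 14, for example DC3 with 654 ± 144 CPM (n = 4) at day 2 and 305 ± 87 CPM (n = 3) at day 14.

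Monocyte-derived cells had Ddit4 at 151, 62.3, 90.9 and 107 CPM in the shams, 124, 192, 181 and 162 CPM at day 2 and 26, 34.9, 18.4 and 57.9 CPM at day 14. Day 14 lay below both other groups in every library, with sham values that rest on 17.0, 3.59, 3.68 and 1.95 counts. The step from day 2 to day 14 was -2.37 ± 0.35 (adjusted p = 0.0033, with 1.79% of all genes called), and day 14 against sham was -1.35 ± 0.43 (adjusted p = 0.0867). Day 14 against sham was called with DESeq2 (-1.49, adjusted p = 0.0226), without TMM (-1.75, 0.0259), with counts rounded up (0.0313), with the replicate number as a block (0.0319), without day 14 library 4 (0.0363) and with only the compared groups (0.0487). Within the subtypes that both times share, Ddit4 averaged 302 ± 71.3 CPM at day 2 and 47.1 ± 11.5 CPM at day 14 in MdC5, and 169 ± 33.4 and 53.6 ± 46.7 CPM in MdC4 (n = 4 each). In border macrophages Ddit4 was at 172, 116, 36.6 and 47.8 CPM in the shams and 39.6, 0, 37.9 and 44.1 CPM at day 2, which overlapped, with means of 93.1 ± 63.2, 30.4 ± 20.4 and 5.57 ± 6.61 CPM in sham, day 2 and day 14 (n = 4 each), and was not tested there for low counts.

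The difference between microglia and the other types was tested by itself. On log2(CPM + 5), the change of Ddit4 from sham to day 2 was lower in microglia than in monocyte-derived cells by -2.78, than in endothelial cells by -2.11, than in dendritic cells by -3.36 and than in T cells by -3.13. Each had an exact two-sided permutation p of 0.02857, the smallest that these numbers of libraries can give, and an adjusted p of 0.1013 over 78 such tests. None of the 78 passed the correction, which at this smallest p needed many tests to reach it together. T cells had 3 stroke libraries with enough cells, at 45.6, 444 and 76.1 CPM, so their mean rested on library 2. Their sham values rest on 2.68, 1.40, 0.934 and 0.802 counts. All these differences include the microglia of library 3 of day 2, with 0.761 Ddit4 counts, and their sizes without it are not given. Against border macrophages the difference was -0.42 (exact permutation p = 0.743).

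**Figure D2:**
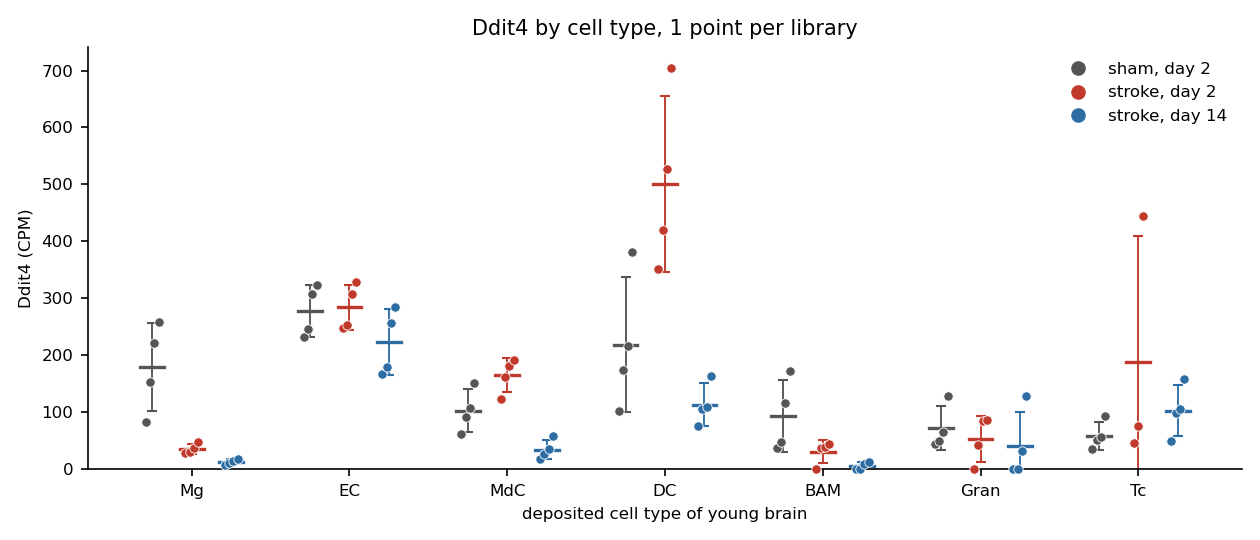
Ddit4 in 7 cell types of the young brain, in CPM on a linear axis, in sham, day 2 stroke and day 14 stroke libraries; points are libraries with at least 20 cells, lines means and bars SD. Day 2 lies below sham in microglia (28.9 to 47.4 against 83.6 to 259 CPM) but not in endothelial, dendritic or monocyte-derived cells, and day 14 lies below day 2 in monocyte-derived and dendritic cells.

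Monocyte-derived cells of the brain had more Sgk1 after stroke than after sham surgery, and less Zbtb16. Of the 6 genes, all tested there, 1 was higher and 1 lower at day 2 and the same 2 genes were called at day 14. Among all 8080 genes tested, 6.71% were called at day 2 (5.66% higher, 1.05% lower) and 5.15% at day 14. Sham brains gave few such cells, 43 to 99 per library against 1468 to 2180 at day 2.

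Sgk1 was at 122, 55.6, 74.9 and 79.2 CPM in the shams, at 417, 460, 491 and 371 CPM at day 2 and at 467, 361, 394 and 277 CPM at day 14. Every stroke library was above every sham library. The change was 2.78 ± 0.32 at day 2 (adjusted p = 0.00021), a fitted ratio of 6.88 to the shams, and 2.53 ± 0.32 at day 14 (adjusted p = 0.000347), a fitted ratio of 5.79. The group means were 83.1 CPM in the shams, 435 CPM at day 2 and 375 CPM at day 14. The sham values rest on 13.7, 3.21, 3.03 and 1.45 counts.

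Most sham cells of this type, 243 of them, were of subtype MdC3, the only subtype with sham values. Within MdC3, Sgk1 averaged 81.6 ± 6.38 CPM in the shams, 173 ± 58.1 at day 2 and 147 ± 47.5 at day 14 (n = 4 each). The other subtypes, present after stroke, ran from 417 to 632 CPM at day 2. So the difference inside the shared subtype was smaller than over all monocyte-derived cells, and the part of subtype composition in the result was not tested further.

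Zbtb16 was at 17.2, 91.8, 71 and 45 CPM in the sham monocyte-derived cells, from 1.93, 5.29, 2.87 and 0.82 counts. It was at 0.875, 0, 0.954 and 0 CPM at day 2 and at 3.83, 8.16, 2.66 and 0.179 CPM at day 14. The groups did not overlap at either time. The fitted change was -6.02 ± 0.99 at day 2 (adjusted p = 0.00207) and -3.40 ± 0.90 at day 14 (adjusted p = 0.039), and the day 14 call held in 5 of 18 alternative settings. Within MdC3 Zbtb16 averaged 59.8 ± 32, 1.97 ± 2.28 and 11.4 ± 22 CPM (n = 4 each), so the same order was seen inside the shared subtype.

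Markers of other cells also moved there. The 9 neutrophil markers summed to 276 to 3742 CPM in the sham monocyte-derived cells, 182 to 352 CPM at day 2 and 73.2 to 167 CPM at day 14. The 9 dendritic markers summed to 25.5 to 305 CPM, 451 to 599 CPM and 941 to 1290 CPM. The 8 microglia markers summed to 0 to 518 CPM in the shams and 270 to 828 CPM at day 2. The endothelial markers, of the type with the highest Zbtb16 level, summed to 0 to 67.8 CPM in the shams and 8.33 to 30.9 CPM at day 2. Their part in the Ddit4, Sgk1 and Zbtb16 differences was not tested.

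The other 3 genes were not called in these cells. Fkbp5 was at 134, 51.5, 0 and 0 CPM in the shams and 31.3, 43.9, 7.38 and 19.2 CPM at day 2, Per1 had 188 CPM in sham library 1 and 48.8 to 59.2 CPM in the other 3 shams, and Tsc22d3 had a day 2 change of 0.00 (adjusted p = 0.999). All 3 overlapped between sham and day 2. Around them, 4 of 8 hypoxia genes rose at day 2 and none fell (median 1.70 against 0.29 over all genes, of which 5.66% were called higher and 1.05% lower), among them Hilpda (3.02) and Vegfa (2.54). No gene of 14 in the receptor list, of 6 clock genes or of 5 integrated stress response genes was called.

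None of the 5 genes tested in endothelial cells was called, where 13.4% of all genes were called at day 2 and 0% at day 14. Endothelial cells had the highest Zbtb16 level of the 8 brain types with at least 3 sham libraries, 31.6, 186, 127 and 101 CPM in the shams, 19.2, 37.2, 19.2 and 92.5 CPM at day 2 and 19.3, 13.6, 0 and 86 CPM at day 14. Library 4 was the highest at both times after stroke, and the groups overlapped (-1.21 at day 2, adjusted p = 0.239). Tsc22d3 averaged 375 CPM in the shams and the 4 stroke libraries of day 2 held 215, 163, 230 and 342 CPM (-0.57, adjusted p = 0.167). Fkbp5 averaged 12.8 CPM (5.88 to 19.6 CPM, n = 4) in sham endothelial cells, the lowest mean of the 8 types with at least 3 sham libraries.

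The smaller brain types gave wider spreads. Sgk1 in border macrophages was at 50.3, 31.6, 26.9 and 35.8 CPM in the shams, 178, 220, 185 and 62.4 CPM at day 2 and 80.5, 0, 42.6 and 93.7 CPM at day 14. Every library of day 2 was above every sham, as in monocyte-derived cells, but the counts were too low for the test, and these cells scored higher for monocyte than for border macrophage markers. Per1 in granulocytes was at 144, 70.1, 144 and 38.7 CPM in the shams and 331, 416, 179 and 153 CPM at day 14, which did not overlap and was not called (0.85 ± 0.68, adjusted p = 0.408).

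Tsc22d3 was the gene with enough counts in the most brain types, and its libraries spread widely in the smaller ones. In border macrophages the shams were at 959, 316, 297 and 33.1 CPM, around the 215 to 378 CPM of day 2. In B cells of the brain the shams were at 1714, 374, 1228 and 284 CPM. None of these differences between groups passed the test.

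Fkbp5 in the blood was followed type by type. In every one of the 5 main blood types the mean of Fkbp5 was higher at day 2 after stroke than after sham surgery and lower again at day 14. No single type passed the test. No gene at all was called at day 2 against sham in the blood (0% of genes in every type by edgeR, and 0 by DESeq2; 14 to 209 genes per type had an unadjusted p under 0.05). With no filter on low counts Fkbp5 was called at day 2 in monocytes (2.07, adjusted p = 2.93e-07) and in neutrophils (1.06, adjusted p = 0.029). Neither was called in another setting run. The monocyte change was of like size with the filter, where its adjusted p was far from the threshold. These 2 calls therefore depend on the filter and were not taken as results.

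In blood monocytes Fkbp5 was at 49.8, 39.5, 42.8 and 2.05 CPM in the shams, 121, 343, 33.5 and 148 CPM at day 2 and 12.7, 17.9 and 27.4 CPM at day 14. Library 3 of day 2 fell inside the sham range, and all of day 14 lay below all of day 2. The changes were 2.10 ± 0.58 from sham to day 2 (adjusted p = 0.997) and -2.91 ± 0.68 from day 2 to day 14 (adjusted p = 0.0724, with 0.537% of all genes called). With no filter on low counts the second was called at a like size (-2.85, adjusted p = 4.2e-12), an adjusted p that again depends on the filter. It was also called with only the compared groups (0.0047), and without sham library 3 (0.045) or 4 (0.0196) or day 2 library 3 (0.0122). Markers of other cells moved in these monocytes from day 2 to day 14 without overlap. The 9 neutrophil markers went from 413 to 966 CPM to 144 to 212 CPM, the 7 border macrophage markers from 1352 to 2492 CPM to 1082 to 1186 CPM, and the 8 dendritic markers from 99.1 to 138 CPM to 230 to 347 CPM. The oligodendrocyte markers went from 154 to 177 CPM to 267 to 286 CPM, the endothelial markers from 38.9 to 86.7 CPM to 97.1 to 120 CPM and the natural killer cell markers from 0 to 5.03 CPM to 9.21 to 75.2 CPM. The part of these in the Fkbp5 change was not tested. In B cells Fkbp5 was at 39.8, 31.6, 22.7 and 3.01 CPM in the shams and 66.7, 239, 24.7 and 76.8 CPM at day 2, again with library 2 highest and library 3 inside the sham range. Day 14 ran from 7.02 to 20.3 CPM.

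In neutrophils Fkbp5 was at 53.3, 26.2, 58.8 and 20.3 CPM in the shams, 56.6, 198, 51.6 and 92.7 CPM at day 2 and 26, 52.6 and 31.4 CPM at day 14. In T cells it was at 24.7, 62.6, 24.5 and 13.1 CPM in the shams, at day 2 at 51.1, 148, 38.6 and 54.4 CPM and at day 14 at 23.7, 27.7 and 20.5 CPM. In natural killer cells it was at 29.8, 94.1, 51.7 and 22.6 CPM in the shams, at 81.1, 336, 121 and 43.7 CPM at day 2 and at 35.5, 62.4 and 65.1 CPM at day 14. Library 2 of day 2 was the highest in every type, and sham and day 2 overlapped in each of these 3 types.

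The mean of log2(CPM + 5) over the 5 types summarised each library by 1 value, a measure added after the levels by type had been seen. It was 5.10 ± 0.82 in the shams (SD, n = 4), 6.56 ± 0.97 at day 2 (n = 4) and 4.96 ± 0.33 at day 14 (n = 3). The difference of 1.46 between day 2 and sham had an exact two-sided permutation p of 0.02857, the smallest this design can give, and an adjusted p of 0.2571 over 36 such tests. That smallest p left the correction little room to be passed. Without library 2 of day 2 the difference was 0.996. In the 2 pairs of sham and stroke libraries whose deposited identity codes share a stem, it was 0.837 and 2.27, with Fkbp5 higher after stroke in 5 of 5 types in both pairs. The other 5 genes also had means above 0 in both pairs, from 0.0678 to 1.85. Tsc22d3 was higher in 5 and 5 of 5 types, Sgk1 in 5 and 4, Ddit4 and Per1 in 4 and 5, and Zbtb16 in 1 and 4. The Zbtb16 mean of 0.344 in the first pair came with natural killer cells above 0 and the other 4 types below 0. The types of a pair come from the same 2 libraries and are not replicates. Library 3 of day 2 was in neither pair. Its mean lay below all shams for Ddit4 (4.60) and Sgk1 (5.30). It lay inside the sham range for Tsc22d3 and Per1, and above all shams for Fkbp5 (5.68) and Zbtb16 (4.18). For Fkbp5 the margin was narrow, 5.681 against 5.669 in sham library 2. The exact permutation p of 0.02857 rested on that margin.

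In the young brain the same measure of Fkbp5 over 6 types differed by -0.815 from sham to day 2, with overlapping groups (exact permutation p = 0.3143). Without library 3 of day 2 it differed by -0.217. The 6 types were microglia, endothelial, monocyte-derived and dendritic cells, border macrophages and granulocytes. None of these deposited labels was among the 5 blood types, so tissue and cell type cannot be told apart in the differences that follow. The difference of the stroke effect between blood and brain was 2.27 for Fkbp5 (exact two-sided permutation p = 0.018 with labels permuted within each tissue, adjusted p = 0.0539 over the 6 genes), and 1.68 without library 3 of day 2 in the brain (exact permutation p = 0.0416). It was 1.90 for Zbtb16 (exact permutation p = 0.0171, adjusted p = 0.0539), where the day 2 minus sham difference was -1.29 in the brain and 0.605 in the blood. Neither passed the correction, and neither did the other 4 genes. Zbtb16 means were low on this measure, 2.87 to 3.61 in the brain at day 2 and 3.07 to 3.72 in the blood shams.

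**Figure D3:**
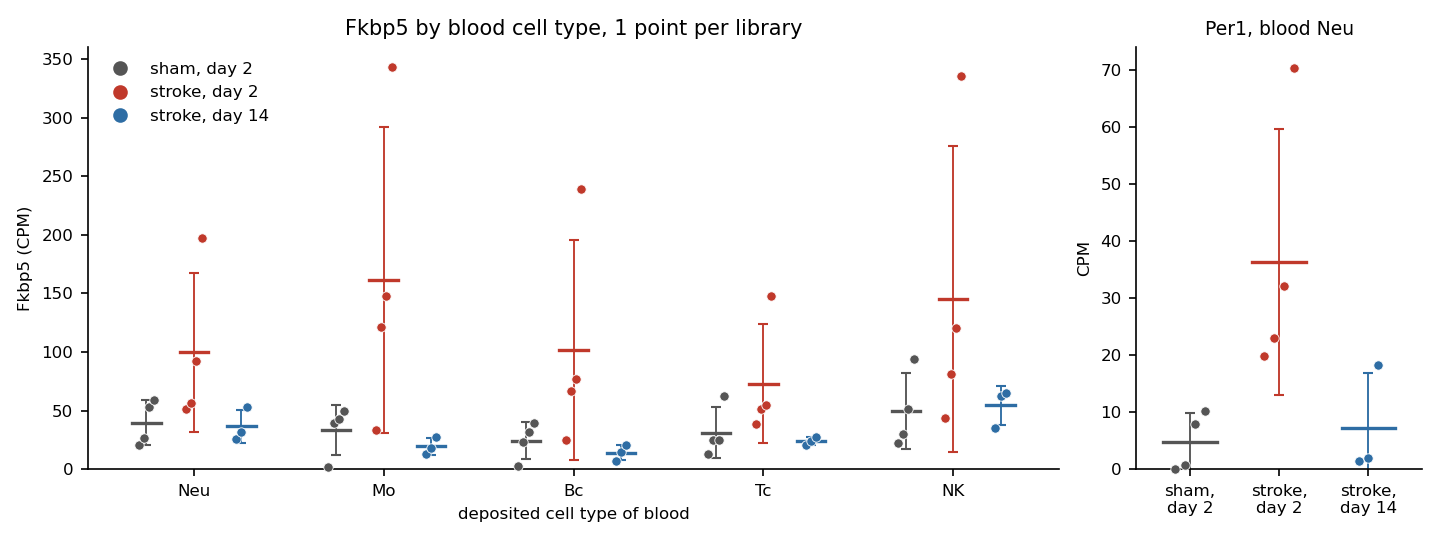
Fkbp5 in neutrophils, monocytes, B cells, T cells and natural killer cells of the blood, and Per1 in blood neutrophils, in CPM on a linear axis from 0, by group; points are libraries, lines means and bars SD. Library 2 of day 2 after stroke gives the highest Fkbp5 point in each type; the day 14 libraries lie below all of day 2 in monocytes, B cells and T cells and overlap day 2 in neutrophils and natural killer cells.

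Per1 in blood neutrophils gave the only called change among the 6 genes in the blood, in 56 tests. It was at 10.3, 7.85, 0.765 and 0 CPM in the shams, 32.1, 70.4, 19.9 and 22.9 CPM at day 2 and 1.43, 1.91 and 18.3 CPM at day 14. Day 2 lay above both other groups, although library 3 of day 14 came close to it. The change from day 2 to day 14 was -3.11 ± 0.80 (adjusted p = 0.0364, with 4.71% of all genes called), and the change from sham to day 2 was 2.42 ± 0.59 (adjusted p = 0.948). The call was lost without library 1 (adjusted p = 0.0985) or 2 (0.0795) of day 2, without library 1 (0.176) or 2 (0.154) of day 14, and without TMM scaling (0.0697).

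Other values in blood neutrophils were less clear. Tsc22d3 was at 345, 443, 249 and 376 CPM in the shams and 705, 952, 357 and 498 CPM at day 2, with library 3 of day 2 inside the sham range (0.83 ± 0.25, adjusted p = 0.948). Zbtb16 was at 6.70, 14.8, 9.58 and 20.0 CPM in the shams and 39.3, 35.4 and 60.0 CPM at day 14, which did not overlap but was not called (1.66 ± 0.49, adjusted p = 0.0572, with 6.05% of all genes called). It was called in 8 of 19 other settings, adjusted p = 0.0231 to 0.0483, among them no TMM and no filter on low counts. The 9 neutrophil markers summed to 199730 to 306830 CPM in the shams, 174920 to 274350 CPM at day 2 and 114430 to 209450 CPM at day 14. The 3 mural cell markers, with Myl9 at 0, summed to 31.6 to 106 CPM in the shams, 28.0 to 48.1 CPM at day 2 and 135 to 180 CPM at day 14, and the 4 endothelial markers to 4.58 to 20.5 CPM at day 2 and 21.2 to 34.0 CPM at day 14. The part of these in the Per1 and Zbtb16 results was not tested. From day 2 to day 14, against 4.71% called over all genes, 2 genes rose and none fell of 11 tested in the receptor list, and none rose and 2 fell of 12 other genes that glucocorticoids raise, among them Il1r2, a decoy receptor for interleukin 1 (-1.94). Of 2 clock genes tested the clock regulator Nfil3 fell by 1.20. Of the other lists, 1 inflammatory gene of 3 fell, 1 integrated stress response gene of 6 and 1 hypoxia gene of 8 rose, and none of 7 early response or 4 FoxO genes was called.

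Ddit4 and Tsc22d3 in B cells of the blood were not called either. Ddit4 was at 65.2, 67.7, 37.6 and 39.3 CPM in the shams, 137, 151, 24.9 and 194 CPM at day 2 and 16.6, 31.1 and 66.6 CPM at day 14. Library 3 of day 2 was below all shams and the other 3 were above them (1.22 ± 0.49, adjusted p = 1.00). Tsc22d3 was at 642, 521, 315 and 349 CPM in the shams and 736, 989, 380 and 458 CPM at day 2, with library 2 highest as for Fkbp5. In monocytes Ddit4 was at 318, 161, 68.7 and 124 CPM in the shams and 126, 307, 15.8 and 169 CPM at day 2, which overlapped, with library 3 again the lowest.

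Monocyte-derived cells of the brain and monocytes of the blood, both at day 2 after stroke, held different amounts of 4 of the 6 genes. Sgk1 and Per1 were higher in the brain and Zbtb16 and Fkbp5 were higher in the blood, where 24.7% of all 7540 genes were called (13.4% higher in the brain, 11.4% lower). Brain and blood were dissociated differently and tabled separately, so tissue, preparation and cell type cannot be told apart.

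Blood monocytes had Sgk1 at 109, 77.5, 42.4 and 55.4 CPM at day 2, well below the 371 to 491 CPM of the brain cells and close to the 56.1 to 106 CPM of the blood shams. The log2 difference of brain minus blood was 2.87 ± 0.30 (adjusted p = 2.89e-05), a fitted ratio of 7.33, with means of 435 and 71.0 CPM. For Per1, blood monocytes were at 18.6, 18.8, 1.63 and 6.97 CPM against 39.7 to 86.3 CPM in the brain (2.64 ± 0.45, adjusted p = 0.00109). Neither gene overlapped between the tissues.

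Zbtb16 in blood monocytes was at 34.5, 116, 21.1 and 24.7 CPM at day 2, against 0 to 0.954 CPM in the brain (-5.75 ± 0.71, adjusted p = 0.000103). Blood shams had 41.8, 20.0, 17.5 and 26.5 CPM, in the range of the 17.2 to 91.8 CPM of the sham brain cells. Fkbp5 overlapped, with 31.3, 43.9, 7.38 and 19.2 CPM in the brain and 33.5 to 343 CPM in the blood (-2.30 ± 0.59, adjusted p = 0.0128), and the call was lost without library 2 of the blood (-1.83, adjusted p = 0.0533). Ddit4 (0.52 ± 0.50, adjusted p = 0.495) and Tsc22d3 (-0.09 ± 0.38, adjusted p = 0.895) were not called.

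**Figure D4:**
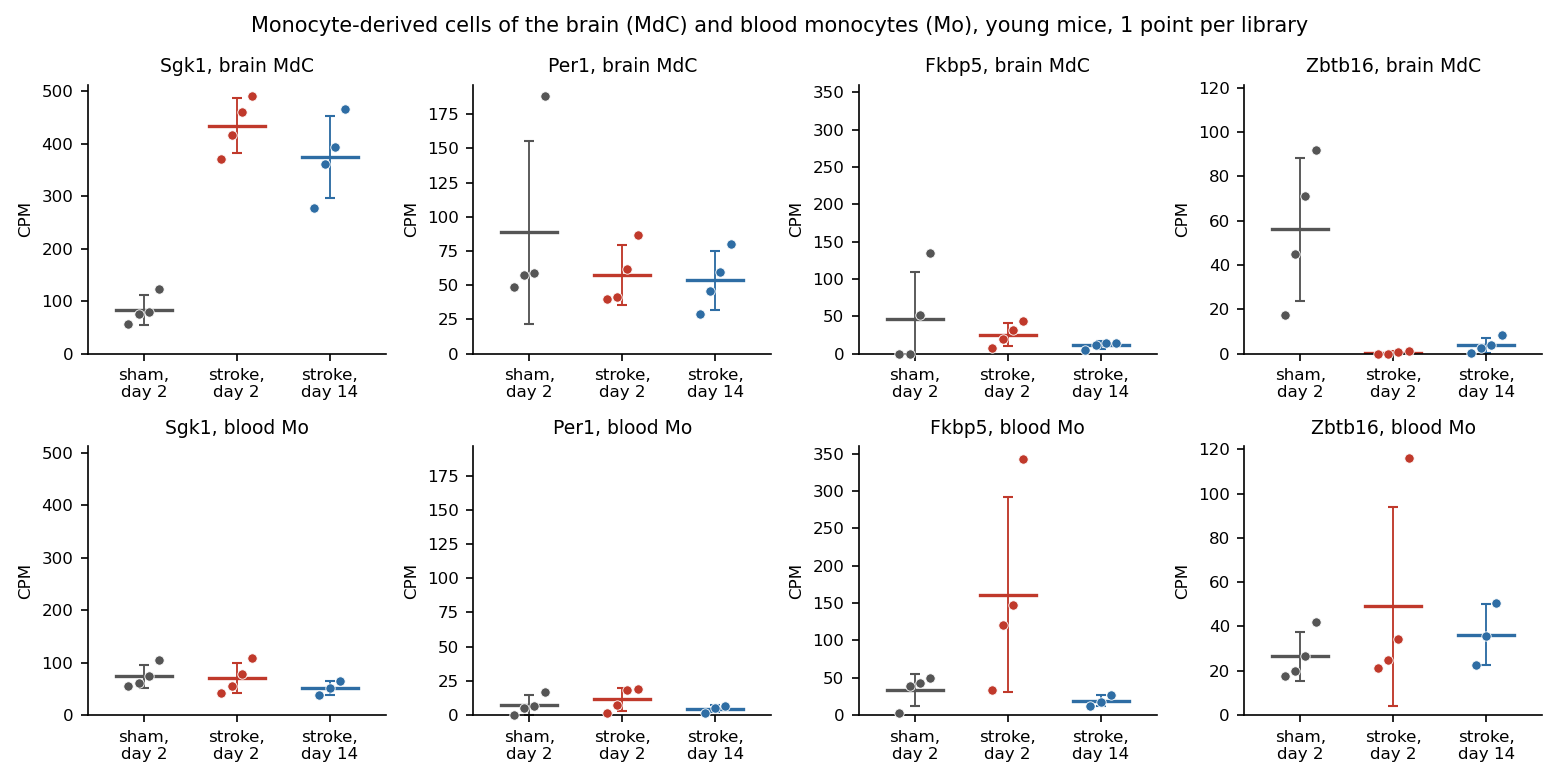
Sgk1, Per1, Fkbp5 and Zbtb16 in monocyte-derived cells of the young brain (top row) and monocytes of the blood (bottom row), in CPM with the same linear axis for a gene in both rows; points are libraries, lines means and bars SD. At day 2 after stroke Sgk1 is at 371 to 491 CPM in the brain and at 42.4 to 109 CPM in the blood. Zbtb16 is at 0 to 0.954 CPM in the brain at day 2.

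The lists around them are read against the 24.7% of all genes called (13.4% higher in the brain, 11.4% lower) and an all-gene median of 0.04. All 11 inflammatory genes tested were higher in the brain (median 6.73), as were 8 of 10 early response genes with none lower. The receptor list had 1 gene higher, the chaperone Hsp90aa1 (1.71), and 6 lower in the brain of 14, among them Hsd11b1 (-1.53), the enzyme that regenerates active corticosterone inside cells, and the coactivator Ncoa1 (-1.56). Other genes that glucocorticoids raise had 9 higher and 5 lower of 18, with Nfkbia at 3.52 and Klf9, a transcription factor, at -1.73. None of the 10 other tests of these genes between brain and blood was called, in B cells (0.473% of all genes called), T cells (6.84%), natural killer cells (3.61%) or granulocytes against neutrophils (9.16%).

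In aged mice, 1 of 58 tests was called. Sgk1 in monocyte-derived cells of the aged brain was at 105 CPM (female) and 209 CPM (male) in the shams and at 398 and 342 CPM (females) and 335 CPM (male) at day 2 after stroke. The groups did not overlap (1.85 ± 0.45, adjusted p = 0.0339, with 2.75% of all genes called). The call was lost with DESeq2 (1.41, adjusted p = 0.0967), without TMM (1.21, adjusted p = 0.174) and on leaving out any 1 of the 3 stroke libraries (adjusted p = 0.0553 to 0.0693). Leaving out a sham library left 1 in that group, and the change was then 2.45 without the male and 1.71 without the female. The sham values rest on 3.83 and 5.99 counts, and in subtype MdC3 the aged means were 164 ± 68 CPM in the shams and 154 ± 50 CPM after stroke. The single aged day 14 library was at 173 CPM.

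Ddit4 in aged microglia was at 63.3 and 45.4 CPM in the shams, below all 4 young shams, and at 10.8, 78.7 and 19.7 CPM at day 2 after stroke. The aged sham minus young sham difference was -1.64 ± 0.59 (adjusted p = 0.889, with 0.018% of all genes called). The aged libraries listed 27514 genes and the young brain libraries 19704, so age cannot be told apart from how the libraries were tabled. Aged stroke overlapped aged sham, with the male stroke library the highest of the 5, and none of the 5 genes tested was called there (2.67% of all genes). The difference of the stroke effect between ages was 1.53 ± 0.81 (adjusted p = 0.739, with 0% of all genes called), so a difference between ages was not shown. The aged microglia had 1247 to 1255 CPM of monocyte and macrophage markers in the shams, above all young shams, and the part of this was not tested.

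Tsc22d3 in aged microglia was at 84.8 and 93.9 CPM in the shams and 31.3, 100 and 32.9 CPM after stroke, again with the male stroke library highest. Fkbp5 was at 87.6 and 81.5 CPM and then 66.1, 153 and 94.6 CPM. In aged microglia Sgk1 was at 445 and 432 CPM in the shams and 385, 280 and 209 CPM after stroke, without overlap and not called (-0.51, adjusted p = 0.583). In aged monocyte-derived cells Sgk1, Ddit4, Tsc22d3 and Fkbp5 did not overlap between sham and stroke, and only Sgk1 was called. Groups of 2 and 3 libraries can separate readily by chance, and the share of all genes without overlap was not counted. Ddit4 was at 82.1 and 0 CPM in the shams and 251, 213 and 112 CPM after stroke (2.71, adjusted p = 0.0602), called with no filter on low counts (0.0126) and without the second female stroke library (0.0386). Tsc22d3 was at 219 and 315 CPM and then 71.6, 93.7 and 49.8 CPM (-1.25, adjusted p = 0.283). Zbtb16 was at 110 and 0 CPM in the shams and 0, 1.01 and 1.07 CPM after stroke, and Fkbp5 was listed at 0 in both shams and at 25.7 to 49.8 CPM after stroke. The young groups held males only. The male aged sham, at 45.4 CPM of Ddit4 in microglia, was also below all young shams, and with sex as a covariate the aged minus young sham difference was -0.88 (adjusted p = 0.876).

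**Figure D5:**
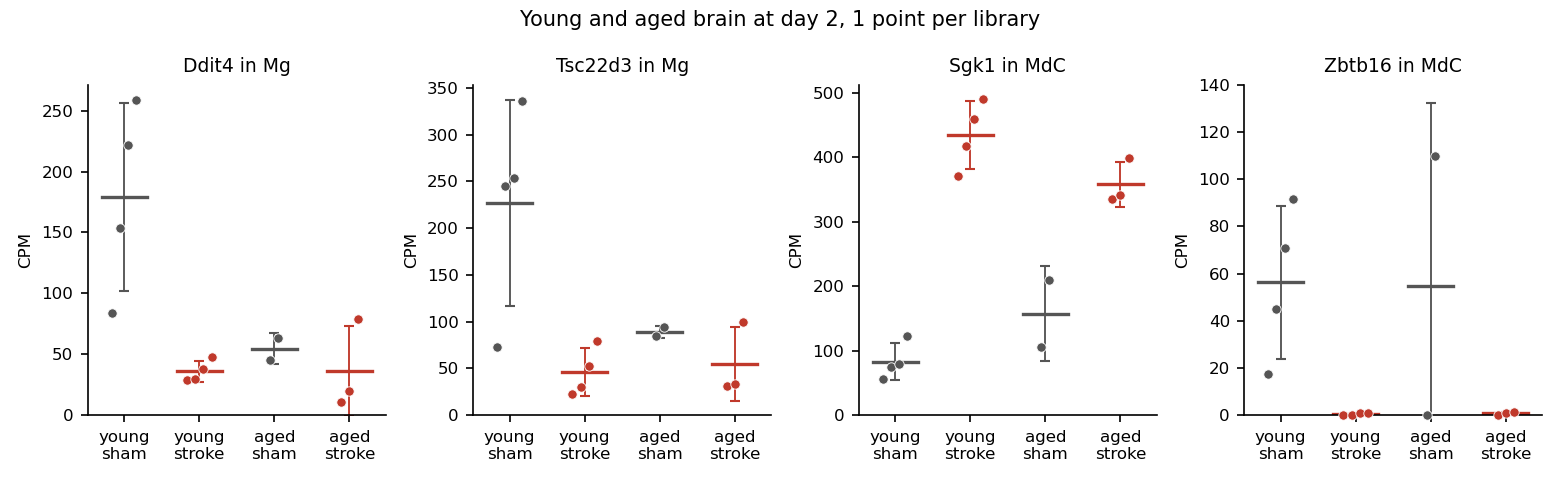
Ddit4 and Tsc22d3 in microglia and Sgk1 and Zbtb16 in monocyte-derived cells, in CPM on linear axes, in young and aged brains after sham surgery and at day 2 after stroke; points are libraries, lines means and bars SD. Aged sham microglia have 45.4 and 63.3 CPM of Ddit4 against 83.6 to 259 CPM in young shams, and Sgk1 is above sham after stroke at both ages.

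The order of the levels in the shams differed from gene to gene over the 8 brain types with at least 3 sham libraries: microglia, endothelial, monocyte-derived and dendritic cells, border macrophages, granulocytes, T cells and B cells. Mural cells, with 2 sham libraries of 32 and 29 cells, were left out of the order, and had 441 and 304 CPM of Ddit4. Ddit4 was highest in endothelial cells (277 ± 45.1 CPM), then dendritic cells (218 ± 119) and microglia (179 ± 77), whose ranges overlapped, and lowest in B cells. Fkbp5 and Sgk1 were highest in microglia (157 ± 45.5 and 414 ± 153 CPM). For Sgk1 the next type, endothelial cells with a mean of 139 CPM (92.9 to 170 CPM), lay below microglia in every library. In contrast, Tsc22d3 in B cells (900 ± 689 CPM) was too spread to separate from its neighbours. Per1 was highest in granulocytes (99.3 CPM) and lay lower in the other 7, down to 36.0 CPM in endothelial cells, and Zbtb16 was highest in endothelial cells (111 ± 64.2 CPM).

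In the blood shams, over the 5 types with at least 3 libraries, Ddit4 was highest in monocytes (168 ± 107 CPM) and lowest in neutrophils (11.6 CPM), and Tsc22d3 was highest in B cells (457 ± 153 CPM). Dendritic cells, with 2 sham libraries, had 243 and 248 CPM of Ddit4. Sgk1 was at 90.2 ± 9.77 CPM in neutrophils and 74.0 ± 22.4 in monocytes, which overlapped, and at 41.2 ± 2.04 in T cells and 17.0 ± 3.94 in B cells, which did not. Per1 was under 10 CPM on average in all 5 types. Fkbp5 ran from 24.3 CPM in B cells to 49.6 CPM in natural killer cells, a span within the spread of libraries. These are counts from the 3′ ends of transcripts on 1 scale within a gene, and levels of different genes are not compared by length.

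Over 102 sums of the young brain (11 types, 12 libraries), the genes with the most similar pattern to Sgk1 were Lhfpl2 (Pearson r = 0.751), Ctsl (0.736) and Rin2 (0.718). For Ddit4 they were Uqcrfs1 (0.641), Eva1b (0.639) and Rbpms (0.576), for Tsc22d3 Ddx5 (0.539), Clk1 (0.516) and Txnip (0.509), and for Per1 Fmnl1 (0.591), Mxd1 (0.578) and Nfkbia (0.576). Fkbp5 (Cmip, 0.475) and Zbtb16 (Ptprg, 0.53) had weaker nearest genes. Over 72 sums of the blood the nearest gene was Tmed9 for Ddit4 (0.703), Emb for Sgk1 (0.646), Ddx6 for Tsc22d3 (0.637), Slc11a1 for Zbtb16 (0.621), Chuk for Fkbp5 (0.543) and Cic for Per1 (0.502). None of the 6 genes was among the 3 nearest of another. The sums share libraries, types and depth, so these values are a description.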

How the data were processed

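Drop-seq profiles came from 29 libraries. The authors deposited a table of expected counts per gene and cell for each library, not normalized. The values are mostly not whole (0.00866% to 4.47% whole), and the step that made them is not given in the sources used here. Cell types were the deposited parent types, and deposited columns of detected-gene counts and of mitochondrial percent were not tested. Per the submitters' processing notes, Seurat and mm10 were used. Every deposited cell was kept and no doublet caller was run; an alternative left out cells above 3 times the median count.

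Counts were summed per library and type with at least 20 cells, rounded, and tested with edgeR 4.0.16 (quasi-likelihood, TMM, filterByExpr) over all genes, in types with at least 2 libraries per group. Young brain, blood, ages, and brain against blood were fitted apart. Exact permutation tests used log2(CPM + 5). DESeq2 1.42.0 was an alternative. On simulated counts for microglia, 65% of 200 genes changed by 2 log2 units were recovered, and 37.5% for monocyte-derived cells. The 6 genes and the 8 lists were chosen with earlier results of these data known. From each list, up to 3 called genes of largest change were named by rule.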

Additional observations from a re-analysis of the deposited data

Results flagged for a closer look

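Among 108 groups of 4 young libraries, 7 held a library far from the other 3, where chance alone gives about 1 in 20, or 5.4. In the blood at day 2 after stroke, library 2 had 148 CPM of Fkbp5 in T cells against 38.6 to 54.4 CPM in the others, and 116 CPM of Zbtb16 in monocytes against 21.1 to 34.5 CPM. Of the 7, 4 concern Per1 in the brain. Sham library 1 had 188 CPM in monocyte-derived cells against 48.8 to 59.2 CPM. In microglia, sham library 4 had 20.1 CPM against 56.7 to 61.4 CPM, stroke library 1 of day 14 had 72.9 CPM against 11.4 to 16.2 CPM, and stroke library 3 of day 2 had 18.3 CPM, from 0.48 counts, against 11.8 to 12.8 CPM. Tsc22d3 in brain granulocytes was at 1237 CPM in library 2 of day 14 and at 124 to 284 CPM in the other 3.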

How the results depend on the processing

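Of the 17 called changes, 9 kept the call in every other setting run, 8 lost it in at least 1, and none changed sign; 275 of 316 settings kept the call. Of 30 followed changes that were not called, 11 gained a call somewhere and none changed sign. They were followed because their groups did not overlap or because the text describes them. The unchanged sign was thus largely fixed by that choice and says little about stability. Sgk1 in blood neutrophils was left out of this set. In the young brain the 11 calls ranged from 7 (without library 1 of day 2 after stroke) to 12 on leaving out 1 library, and were 15 without TMM. In the blood the 1 call became 2 with DESeq2, 2 without cells of very high counts, 2 with counts rounded up, 4 with only the compared groups fitted and 8 with no filter on low counts, Fkbp5 among them, and ranged from 0 to 3 on leaving out 1 library. By age the 1 call became 0 without TMM and 3 with no filter, and ranged from 0 to 1 on leaving out 1 library. There were 0 calls with at least 50 cells, where the male aged sham, with 33 monocyte-derived cells, dropped out and the called contrast was not run. The causes of the other changes in these numbers were not tested. Brain against blood gave 3 to 5 calls on leaving out 1 library, and 6 with no filter. The difference between cell types gave 0 calls throughout. With its smallest possible exact p, a call needed many of these tests to reach that value together. The design thus nearly fixed this result, which says little about stability. The blood mean of Fkbp5 ranged from 0.996 to 1.75.

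The replicate numbers did not meet the criterion for pairing: not every same-numbered pair correlated above 0.1. Same-numbered medians by type were 0.0418 to 0.141, with values from -0.381 to 0.769, and differently numbered medians were -0.0773 to -0.00583. With the replicate number as a block there were 14 calls in the young brain, 1 in the blood and 4 between brain and blood. Leaving out TMM moved the median change of all genes from -0.04 to -0.50 in microglia at day 14, from 0.29 to -0.13 in monocyte-derived cells at day 2 and from 0.44 to -0.22 in aged monocyte-derived cells. DESeq2 gave no adjusted p for Zbtb16 in monocyte-derived cells at day 14, which is left out.

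Depth limits Fkbp5, Sgk1 and Zbtb16 in sham monocyte-derived cells (0 to 15.1 counts per library) and Ddit4 there (1.95 to 17.0 counts). In microglia of library 3 of day 2 it limits Ddit4 (0.761 counts), Tsc22d3 (0.584), Per1 (0.482) and Fkbp5 (0.133). It also limits Per1 in blood neutrophils of day 14 (0.695 to 3.87 counts). Zbtb16 in microglia and all 6 genes in blood natural killer cells were too low to test.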
